A study of Mus musculus with 9 samples.

Results

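The mTOR pathway genes described here are *Mtor*, *Rptor*, *Rictor*, *Mlst8*, *Tsc1*, *Tsc2*, *Rheb*, *Akt1*, *Akt1s1* and *Rps6kb1*, chosen by name as the core of the pathway. All 10 were among the 15184 genes of the deposited table, so that none was lost to the authors' filter on low counts. PolyA+ RNA of mouse embryonic fibroblasts (MEFs) was measured by RNA-Seq in 9 libraries. Control MEFs, labelled Empty with the genotype empty vector, gave 3 libraries, and 2 lines labelled SAM1 and SAM2, both with the genotype Hnrnpk_SAM, gave 3 libraries each. Per the study's methods, the cells were wild-type MEFs, and the Hnrnpk_SAM lines carried the lentiMPH and lentiSAM vectors of the synergistic activator mediator system, in which an inactive Cas9 with activator domains is guided to a promoter, here that of *Hnrnpk*. As control the methods name the lentiSAM vector with a nontargeting guide, and transduced cells were selected with blasticidin and hygromycin. For the nontargeting guide the methods print the same sequence as for the *Hnrnpk* guide sgHnrnpk2. The 2 *Hnrnpk* guides were used separately, but the labels do not tie a guide to a line. Since their library protocol speaks of empty vector and sgRNA2 cells alone, whether SAM1 and SAM2 stand for different guides cannot be told. The labels also do not say whether the 3 libraries of a group came from separate cultures, so that p-values measure the spread between these libraries, which may be technical. No dose, time course or drug was part of the comparison, and nothing about mTOR itself was altered by design.

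The kinase mTOR works in a pair of complexes that share the subunit mLST8. With Raptor, the product of *Rptor*, it forms mTORC1, which promotes protein synthesis and cell growth and restrains autophagy when amino acids and growth factors are plentiful. With *Rictor* it forms mTORC2, which phosphorylates AKT and related kinases. AKT, activated downstream of growth factor receptors and PI3K, inhibits the TSC complex of TSC1 and TSC2, and TSC2 is the GTPase-activating protein that switches off *Rheb*, the small GTPase that activates mTORC1 at the lysosome. PRAS40, the product of *Akt1s1*, binds Raptor and holds mTORC1 back until AKT phosphorylates it, and S6K1, the product of *Rps6kb1*, is a main kinase substrate of mTORC1. These are relations between proteins and their phosphorylation. The values below are mRNA levels and carry no measure of pathway activity.

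The genes are spread over 8 chromosomes of GRCm39 (GENCODE vM39): *Mtor* at chr4:148533015-148642141, *Rptor* at chr11:119493731-119790402, *Rictor* at chr15:6737860-6829882, *Mlst8* at chr17:24692524-24698057, *Tsc1* at chr2:28531061-28581179, *Tsc2* at chr17:24814783-24852192, *Rheb* at chr5:25007821-25047622, *Akt1* at chr12:112620248-112645654, *Akt1s1* at chr7:44498415-44504908 and *Rps6kb1* at chr11:86360804-86435982. A pair of promoter windows, each the 250 bases before the start of the canonical transcript on the plus strand, are shown because *Tsc1* and *Rictor* were both called higher in each line and because their windows hold 0 and 2 bases of annotated exon, while 36 to 250 bases of the other 8 windows lie in exons. Capitals mark matches, on either strand, to the 6 motifs searched. These were the E-box CACGTG, the forkhead motif GTAAACA, the CRE TGACGTCA, the CCAAT box, the GC box GGGCGG and the E2F motif TTTNGCGC.

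The *Tsc1* window (chr2:28530811-28531060) and the *Rictor* window (chr15:6737612-6737861) read as follows.
Tsc1: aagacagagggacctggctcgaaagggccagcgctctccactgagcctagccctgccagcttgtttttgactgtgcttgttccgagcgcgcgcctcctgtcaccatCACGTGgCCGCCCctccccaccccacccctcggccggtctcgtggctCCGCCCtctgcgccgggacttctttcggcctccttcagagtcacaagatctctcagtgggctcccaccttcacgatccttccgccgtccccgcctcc
Rictor: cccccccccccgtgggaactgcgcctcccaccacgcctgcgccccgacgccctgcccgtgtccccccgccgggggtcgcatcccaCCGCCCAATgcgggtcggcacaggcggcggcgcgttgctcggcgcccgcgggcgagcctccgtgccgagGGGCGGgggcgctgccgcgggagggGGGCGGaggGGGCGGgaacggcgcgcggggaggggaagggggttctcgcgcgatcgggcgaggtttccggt

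The *Tsc1* window holds 1 E-box, the site read by basic helix-loop-helix leucine zipper factors such as MYC and TFEB, 144 bases before the start, and 2 GC boxes, of which 1 lies a single base from the E-box. The E-box was found in 7.45% of 14790 windows of the same length, and among the 10 genes in *Tsc1* alone. The *Rictor* window is 81.2% G and C, against 65.6% for *Tsc1*, and holds 4 GC boxes and 1 CCAAT box, which overlaps a GC box. GC boxes were found in 46.7% of all windows and in those of 4 of the 10 genes, and CCAAT boxes in 35.6% of all and 5 of the 10. The forkhead motif, in 2.41% of windows, was found in those of *Akt1* and *Akt1s1*, and neither the CRE (1.97% of windows) nor the E2F motif (1.62%) was found in any of the 10. A match describes letters in a window, not binding.

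The libraries held 41759636 to 49026626 reads on the listed genes, recovered from the deposited values. *Hnrnpk*, the targeted gene, read 25058, 26098 and 26164 normalized counts with empty vector, 24102, 24044 and 23619 with SAM1 and 26608, 26859 and 26221 with SAM2, so that its mRNA in the libraries labelled Hnrnpk_SAM lay below the empty vector range in SAM1 and slightly above it in SAM2. The change on the log2 scale was -0.11 (adjusted p = 0.00252) in SAM1 and 0.044 (adjusted p = 0.159) in SAM2. A higher level of *Hnrnpk* mRNA, the direction of the label, was thus not called in either line by the main test. Under quantile normalization both lines were called higher, at 0.094 (adjusted p = 0.00502) in SAM1 and 0.22 (adjusted p = 4.59e-06) in SAM2. SAM2, but not SAM1, was also called higher with the values centred by chromosome (0.21, adjusted p = 1.5e-05) or on the level of the chromosome (0.19, adjusted p = 0.000696), as described below. With centring on the level of classes of transcript length, SAM2 was called lower (-0.095, adjusted p = 0.0211). The paper reports *Hnrnpk* overexpression in its SAM MEFs by qRT-PCR and Western blot. All 12 fibroblast markers were in the table, with *Lum* the lowest, and their summed level was 1048610 to 1143440 normalized counts in empty vector, 865735 to 927412 in SAM1 and 1165990 to 1204540 in SAM2. Single markers, chosen after their values were seen, differed more, with mean levels of *Dcn* of 11815, 2713 and 2538, of *Pdgfra* of 9709.5, 6403 and 5534 and of *Pdgfrb* of 6569, 12577 and 9513 in empty vector, SAM1 and SAM2. Of markers of other cells, the summed level of the epithelial list (3 of 7 in the table, *Epcam* not among them) was 388 to 429 normalized counts in empty vector, 3733 to 3884 in SAM1, mostly of *Cldn4*, and 243 to 275 in SAM2. That of the endothelial list (4 of 5) was 301 to 357 in empty vector. It was 4613 to 4988 in SAM1, mostly of *Kdr*, and 638 to 689 in SAM2. The mean of *Pecam1* was at or below 29.5 in every group, and was higher in SAM1 than in empty vector (12.9). Mean *Cdh5* was 77.6 in empty vector and lower in SAM1 (64.7) and SAM2 (51.2). Mean *Tek* was 35.6 in empty vector, 29.05 in SAM1 and 67.1 in SAM2. The sums of the neural (2 of 5), skeletal muscle (2 of 5) and leukocyte (1 of 6) lists were 299 to 335, 88.8 to 127 and 315 to 416 in empty vector, 898 to 937, 338 to 365 and 512 to 541 in SAM1 and 603 to 638, 412 to 457 and 543 to 583 in SAM2, above empty vector in both lines without overlap. Their part in the values below was not tested. In bulk RNA a change in the makeup of the cells and a change of RNA per cell cannot be told apart.

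The 10 genes moved in both directions. With the 6 Hnrnpk_SAM libraries pooled against the 3 empty vector libraries, 3 of the 10 rose (*Rictor*, *Tsc1* and *Tsc2*), 4 fell (*Rptor*, *Rheb*, *Akt1* and *Akt1s1*) and 3 did not pass the test (*Mtor*, *Mlst8* and *Rps6kb1*), at an adjusted p below 0.05 with limma. Of all genes, 26.8% were called higher and 27.0% lower in that comparison, so that the count of called genes is set against a background in which calls in either direction made up most genes. In SAM1 alone 3 rose and 5 fell, with *Rps6kb1* joining those that fell, against 37.3% higher and 36.9% lower among all genes. In SAM2 alone 3 rose and 4 fell, against 35.2% and 35.3%. The 3 comparisons share the same empty vector libraries. For the 10 the median change, on the log2 scale, was -0.13 for the lines together, -0.15 in SAM1 and -0.033 in SAM2, beside 0.0087, 0.0093 and -0.0015 for all genes. All 6 Hnrnpk_SAM libraries lay above all 3 empty vector libraries for *Tsc1* and *Tsc2*, a separation that 25.9% of all genes showed, and below them for *Rptor*, *Rheb*, *Akt1* and *Akt1s1*, as for 27.2% of all genes. Every change was modest, from 0.696-fold for *Rheb* in SAM1 to 1.53-fold for *Rictor* in SAM2.

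**Figure D1:**
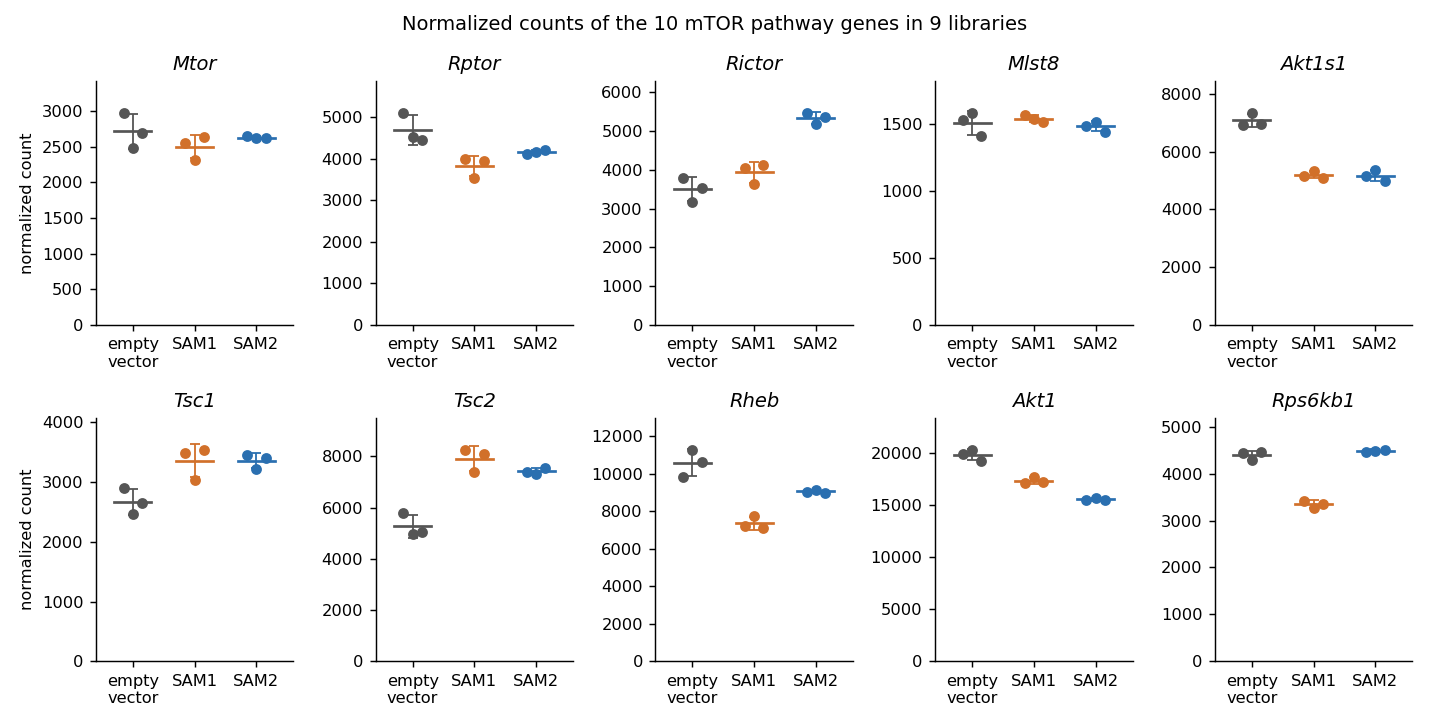
Normalized counts (y axis, from 0) of the 10 genes in the 3 empty vector, 3 SAM1 and 3 SAM2 libraries. Points are libraries, horizontal bars are group means and error bars are SD (n = 3). The Hnrnpk_SAM points of *Tsc1* and *Tsc2* all lie above the empty vector points, those of *Rptor*, *Rheb*, *Akt1* and *Akt1s1* all lie below them, and *Rictor* is highest in SAM2.

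The kinase and the subunit common to both complexes did not pass the test in either line. *Mtor*, the catalytic subunit, read 2979, 2482 and 2693 normalized counts with empty vector, 2548, 2321 and 2644 with SAM1 and 2649, 2624 and 2618 with SAM2. The groups overlapped, and the spread between the empty vector libraries was wider than the distance between the group means. In log2 terms the fold change was -0.12 (95% interval -0.25 to 0.014, adjusted p = 0.0976) in SAM1 and -0.043 (95% interval -0.17 to 0.087, adjusted p = 0.539) in SAM2, which leaves room for a fall of up to the lower limit. *Mlst8*, the WD40 subunit that binds the kinase domain, read 1525, 1581 and 1409 normalized counts with empty vector, 1565, 1532 and 1512 with SAM1 and 1484, 1515 and 1441 with SAM2. The 3 ranges of *Mlst8* overlapped, with log2 fold changes of 0.031 (95% interval -0.066 to 0.13, adjusted p = 0.544) in SAM1 and -0.023 (95% interval -0.12 to 0.074, adjusted p = 0.664) in SAM2. Neither gene passed the main test in any comparison, and the intervals bound the change in *Mlst8* more tightly than that in *Mtor*. In SAM1 *Mtor* became called lower without empty vector replicate 2 (-0.18, adjusted p = 0.00925) or SAM1 replicate 3 (-0.16, adjusted p = 0.0471). That was not so with any other library left out. It was also called lower in SAM1 with the replicate number as a block (adjusted p = 0.0217).

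*Rptor* and *Akt1s1*, the genes whose products belong to mTORC1 and not mTORC2, both fell. *Rptor*, whose product recruits substrates to mTORC1, read 5105, 4526 and 4454 normalized counts with empty vector, 3989, 3533 and 3949 with SAM1 and 4121, 4157 and 4219 with SAM2. Every Hnrnpk_SAM library lay below the lowest empty vector library. Its log2 fold change was -0.23 (95% interval -0.38 to -0.086, adjusted p = 0.0135) for the lines together, -0.30 (adjusted p = 0.000245) in SAM1 and -0.17 (adjusted p = 0.0127) in SAM2. Without empty vector replicate 1, the highest of its group, the call was lost for the lines together (-0.17, adjusted p = 0.0703) and in SAM2 (-0.11, adjusted p = 0.0545). *Akt1s1*, which encodes the mTORC1 inhibitor PRAS40, fell by more and with less spread, and read 6932, 7341 and 6958 normalized counts with empty vector, 5158, 5336 and 5096 with SAM1 and 5165, 5358 and 4978 with SAM2. The groups were far apart, and the lines lay on top of each other. On the log2 scale it changed by -0.45 (95% interval -0.53 to -0.37, adjusted p = 8.42e-06) for the lines together, -0.45 (adjusted p = 8.88e-08) in SAM1 and -0.45 (adjusted p = 9.28e-08) in SAM2, and SAM2 differed from SAM1 by -0.0086 (95% interval -0.086 to 0.068, adjusted p = 0.846).

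*Rictor*, the subunit that defines mTORC2, moved the other way from *Rptor*, and its rise came mostly from SAM2. It read 3783, 3176 and 3542 normalized counts with empty vector, 4057, 3623 and 4133 with SAM1 and 5472, 5183 and 5364 with SAM2. SAM1 overlapped empty vector, and every SAM2 library lay above every other library. The fitted log2 fold change was 0.17 (95% interval 0.040 to 0.30, adjusted p = 0.0211) in SAM1 and 0.61 (95% interval 0.48 to 0.74, adjusted p = 9.28e-07) in SAM2, and SAM2 exceeded SAM1 by 0.44 (95% interval 0.31 to 0.57, adjusted p = 3.49e-05). For the lines together the change was 0.39 (95% interval 0.079 to 0.70, adjusted p = 0.0379), and that call was lost with each empty vector or SAM2 library left out (adjusted p from 0.0561 to 0.146). The SAM1 call was lost without empty vector replicate 2 (adjusted p = 0.0923), SAM1 replicate 1 (0.0757) or SAM1 replicate 3 (0.0863), and the SAM2 call was kept in every such fit.

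Both genes of the TSC complex, the brake on *Rheb*, rose in both lines. *Tsc1*, whose product stabilizes TSC2, read 2899, 2456 and 2640.2 normalized counts with empty vector, 3479, 3039 and 3541 with SAM1 and 3449, 3208 and 3394 with SAM2. All Hnrnpk_SAM libraries lay above all empty vector libraries, and the lines overlapped. The change on the log2 scale was 0.33 (95% interval 0.19 to 0.48, adjusted p = 0.00193) for the lines together, 0.33 (adjusted p = 0.000397) in SAM1 and 0.33 (adjusted p = 0.000421) in SAM2. *Tsc2*, which carries the GTPase-activating domain, rose more and read 5785, 4959 and 5044 normalized counts with empty vector, 8260.5, 7372 and 8097 with SAM1 and 7388, 7322 and 7532 with SAM2. Its lowest Hnrnpk_SAM library was above its highest empty vector library by more than the empty vector range. The log2 fold change of *Tsc2* was 0.54 (95% interval 0.40 to 0.68, adjusted p = 6.7e-05) for the lines together, 0.59 (adjusted p = 4.29e-07) in SAM1 and 0.50 (adjusted p = 2.73e-06) in SAM2, and the lines differed by -0.092 (95% interval -0.21 to 0.027, adjusted p = 0.167). *Tsc1* differed between the lines by 0.0016 (95% interval -0.14 to 0.14, adjusted p = 0.985).

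*Rheb*, the GTPase that TSC2 acts on, fell, and by more in SAM1 than in SAM2. It read 9839, 11277 and 10592 normalized counts with empty vector, 7229.7, 7729 and 7086 with SAM1 and 9014, 9138 and 8978 with SAM2. Every Hnrnpk_SAM library lay below every empty vector library, and SAM1 lay below SAM2. In log2 terms the fold change was -0.37 (95% interval -0.59 to -0.15, adjusted p = 0.00936) for the lines together, -0.52 (adjusted p = 2.08e-07) in SAM1 and -0.22 (adjusted p = 0.000648) in SAM2, and SAM2 exceeded SAM1 by 0.30 (95% interval 0.20 to 0.40, adjusted p = 8.19e-05).

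*Akt1*, the kinase upstream of the TSC complex and the most abundant of the 10 by normalized count, fell in both lines and by more in SAM2. It read 19885, 20296 and 19206 normalized counts with empty vector, 17119, 17683 and 17139 with SAM1 and 15442, 15673 and 15468 with SAM2. The 3 groups did not overlap. The log2 fold change of *Akt1* was -0.27 (95% interval -0.40 to -0.15, adjusted p = 0.00239) for the lines together, -0.19 (adjusted p = 3.16e-05) in SAM1 and -0.35 (adjusted p = 1.15e-07) in SAM2, and SAM2 lay -0.16 from SAM1 (95% interval -0.22 to -0.10, adjusted p = 0.00032). Under quantile normalization the SAM1 value was -0.020 (adjusted p = 0.532) and that of the lines together -0.13 (adjusted p = 0.148), so that both calls were lost.

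*Rps6kb1*, the S6 kinase gene downstream of mTORC1, fell in SAM1 and did not pass the test in SAM2, and the difference between the lines was itself called. It read 4445, 4280.4 and 4451 normalized counts with empty vector, 3426, 3275 and 3356 with SAM1 and 4466, 4491 and 4512 with SAM2. SAM1 lay well below the other 2 groups, and SAM2 lay at or above the top of the empty vector range. Its log2 fold change was -0.39 (95% interval -0.45 to -0.32, adjusted p = 6.14e-08) in SAM1 and 0.032 (95% interval -0.033 to 0.10, adjusted p = 0.358) in SAM2, a difference of 0.42 (95% interval 0.36 to 0.49, adjusted p = 7.1e-08). With the lines together the change was -0.18 (95% interval -0.46 to 0.10, adjusted p = 0.248), since the spread between the lines then counts as error.

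Between the lines, 4 of the 10 genes differed. *Rictor*, *Rheb* and *Rps6kb1* were higher in SAM2 than in SAM1, where 31.1% of all genes were called higher, and *Akt1* was lower, where 29.2% were called lower. *Rptor* was 0.13 (adjusted p = 0.0603) apart and did not pass. In SAM2 against empty vector the largest change among the 10 was that of *Rictor*, and in SAM1 it was that of *Tsc2*.

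**Figure D2:**
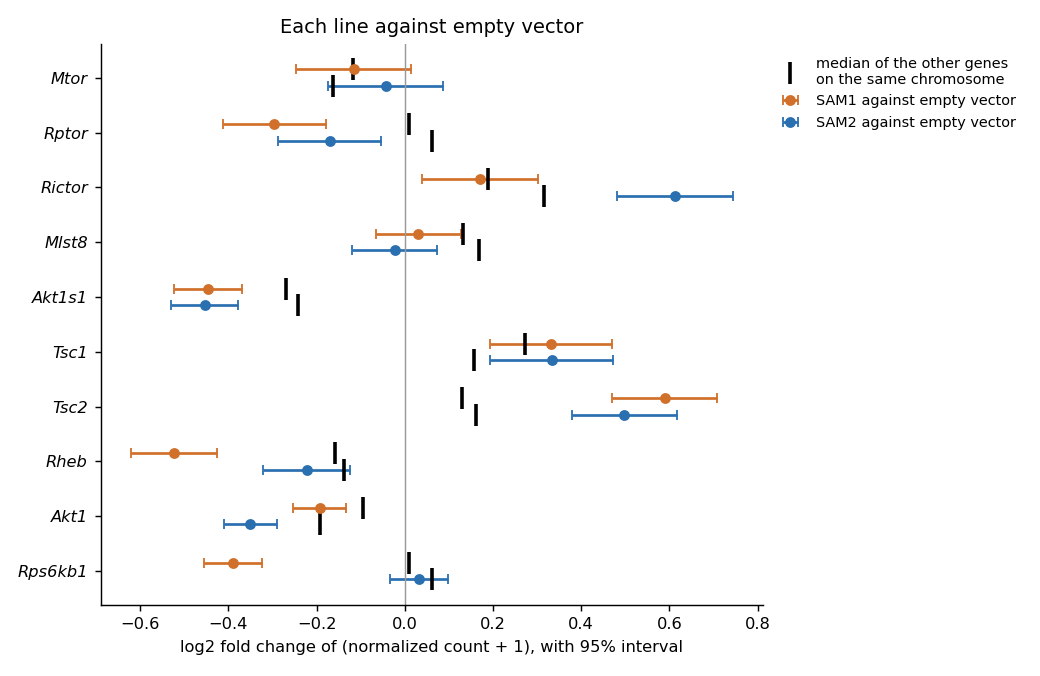
Log2 fold changes of the 10 genes in SAM1 (orange) and SAM2 (blue) against empty vector, on log2(normalized count + 1), with 95% intervals from limma. Black ticks give the median change of the other genes on the same chromosome in the same comparison. *Tsc2* lies furthest right in SAM1 at 0.59 and *Rictor* in SAM2 at 0.61, and the *Rictor* interval in SAM1 spans its chromosome's median.

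Ratios within a library do not depend on its scaling. The ratio of *Rptor* to *Rictor* sets the partner of mTORC1 against that of mTORC2, and its log2 was 0.43, 0.51 and 0.33 in the controls, -0.024, -0.036 and -0.066 in SAM1, -0.41, -0.32 and -0.35 in SAM2. The 3 groups were fully apart, with every Hnrnpk_SAM library below every empty vector library. The mean of the 6 Hnrnpk_SAM libraries lay -0.62 from that of empty vector (exact permutation test, two-sided, p = 0.0119, the smallest that 84 splits allow, adjusted p = 0.0159 over 4 ratios). These ratios compare counts of transcripts of unequal length, so that only their change between groups is read. Per kilobase of canonical transcript, mean *Rptor* lay above mean *Rictor* in every group (712 against 376 in empty vector, 580 against 423 in SAM1 and 632 against 573 in SAM2).

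The ratio of *Rheb* to *Tsc2*, the GTPase and the protein that switches it off, changed most. Its log2 was 0.77, 1.19 and 1.07 in the controls, -0.19, 0.068 and -0.19 in SAM1, 0.29, 0.32 and 0.25 in SAM2. The lowest empty vector library stood above the highest Hnrnpk_SAM library, with a difference of -0.92 (exact permutation test, adjusted p = 0.0159). Every Hnrnpk_SAM library lay below empty vector for *Rheb* and above it for *Tsc2*. The separation of their ratio, and a p at the smallest that 84 splits allow, follow from that and add no further evidence. *Tsc1* to *Tsc2* went from -0.98 ± 0.042 (SD, n = 3) in empty vector to -1.24 ± 0.043 in SAM1 and -1.15 ± 0.046 in SAM2, a difference of -0.21 with no overlap (exact permutation test, adjusted p = 0.0159), so that the rise of *Tsc2* exceeded that of *Tsc1*. *Mlst8* to *Mtor* was -0.85 ± 0.17 in empty vector, -0.70 ± 0.10 in SAM1 and -0.83 ± 0.035 in SAM2, with overlapping groups (difference 0.084, exact permutation test, p = 0.369). For a single line against empty vector, 3 libraries against 3 cannot give a p below 0.1, and no such test was made.

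**Figure D3:**
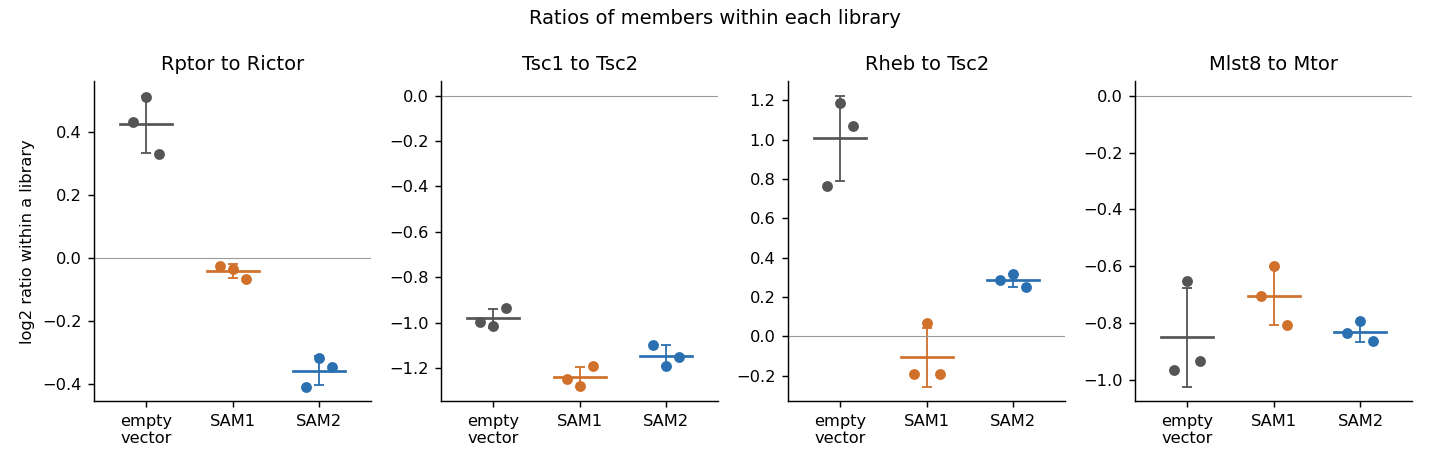
Log2 ratios of 4 pairs of the genes within each library, for the 3 groups. Points are libraries, horizontal bars group means and error bars SD (n = 3), and the y axes differ between panels. *Rptor* to *Rictor* falls from 0.42 ± 0.090 in empty vector to -0.36 ± 0.046 in SAM2, and *Mlst8* to *Mtor* overlaps between the groups.

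Levels of different genes were set side by side per kilobase of the canonical transcript. In empty vector *Akt1* was highest at 6132 ± 171 normalized counts per kb (SD, n = 3), followed by *Rheb* at 5925 ± 403 and *Akt1s1* at 4276 ± 138. *Akt1* and *Rheb* overlapped and *Akt1s1* lay below both. A middle tier held *Rps6kb1* at 788 ± 17.4, *Tsc2* at 767 ± 66.2 and *Rptor* at 712 ± 54.1, each overlapping the next. The lowest tier ran from *Mlst8* at 389.7 ± 22.7 through *Rictor* at 376 ± 32.8 and *Tsc1* at 338 ± 28.2 to *Mtor* at 316 ± 29.01, again each overlapping the next, so that the kinase itself had the lowest level per kb. In SAM1 *Tsc2* took the fourth place at 1152 ± 68.9, clear of *Rps6kb1* at 601 ± 13.6. In SAM2 *Rheb* (5069 ± 47.02) stood above *Akt1* (4810.4 ± 39.1), *Rictor* (573 ± 15.7) stood above *Tsc1* (425 ± 15.98), and no neighbours overlapped. *Mtor* was last in all 3 groups.

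Several of the changes lay close to those of neighbouring genes. The median change of the 595 other genes on chromosome 15, where *Rictor* lies, was 0.19 in SAM1 and 0.32 in SAM2, and within 5 Mb of *Rictor* 25 of 35 genes were called higher and 2 lower with the lines together. Against this, *Rictor* itself changed by 0.17 in SAM1 and 0.61 in SAM2. On chromosome 7 the median was -0.27 in SAM1 and -0.24 in SAM2, beside -0.45 and -0.45 for *Akt1s1*. On chromosome 2 it was 0.27 and 0.16, beside 0.33 and 0.33 for *Tsc1*, and on chromosome 5 it was -0.16 and -0.14, beside -0.52 and -0.22 for *Rheb*. On chromosome 12 the median was -0.095 in SAM1 and -0.19 in SAM2, beside -0.19 and -0.35 for *Akt1*. On chromosome 4 it was -0.12 and -0.16, beside -0.12 and -0.043 for *Mtor*. *Tsc2* and *Mlst8* share chromosome 17, with medians of 0.13 and 0.16, of which *Tsc2* lay above and *Mlst8* below. Chromosome 11, with *Rptor* and *Rps6kb1*, had medians near 0 (0.0097 and 0.061), although the 5 Mb around *Rptor* had -0.15 and -0.23.

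The values of each library were therefore also centred within each chromosome, by taking off the median deviation of its genes from their own means, an alternative chosen after seeing the data. With the lines together, *Tsc2* (0.41, adjusted p = 0.00083), *Rptor* (-0.27, adjusted p = 0.00357), *Akt1s1* (-0.19, adjusted p = 0.00242) and *Akt1* (-0.12, adjusted p = 0.0249) kept their calls. *Rictor* (0.13, adjusted p = 0.315), *Tsc1* (0.11, adjusted p = 0.258) and *Rheb* (-0.22, adjusted p = 0.0606) lost theirs, and *Mlst8* became called lower (-0.13, adjusted p = 0.045). By line, *Rictor* was at -0.014 in SAM1 and stayed called in SAM2 at 0.28 (adjusted p = 0.00145), and *Tsc1* was likewise called in SAM2 (0.17, adjusted p = 0.032) and not in SAM1 (0.042). *Rheb* stayed called in SAM1 (-0.35, adjusted p = 1.23e-05) and not in SAM2 (-0.088). A first form of the centring, on the median level of each chromosome, also ended the call of *Akt1s1* with the lines together (-0.091, adjusted p = 0.0837). Centring removes whatever most genes of a chromosome share, and the source of the chromosome medians was not tested.

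Some of the spread between libraries of a group followed transcript length. All genes were divided by canonical transcript length into 10 classes of equal size. In the class of the longest, which holds *Mtor*, *Rictor* and *Tsc1*, the median deviation from the group mean on the log2 scale was 0.082 in empty vector replicate 1, -0.082 in replicate 2 and 0.0023 in replicate 3. *Mtor* deviated by 0.14, -0.13 and -0.0094 in the same libraries, and *Rictor* by 0.12, -0.14 and 0.021. SAM1 replicate 2 was likewise low for long transcripts (-0.095), and there *Mtor* deviated by -0.11, *Rptor* by -0.11, *Tsc1* by -0.14 and *Tsc2* by -0.10, while *Rheb*, with a transcript of 1784 bases, deviated by 0.074. The SAM2 libraries stayed between -0.025 and 0.022 in that class. Between groups the longest class had a median log2 fold change of 0.0036 in SAM1 and 0.10 in SAM2. With the values centred within the classes of length in the same way, also chosen after seeing the data, all 7 calls of the lines together were kept, and *Mtor* became called lower, at -0.15 with the lines together (adjusted p = 0.00551), -0.13 in SAM1 (adjusted p = 0.00174) and -0.16 in SAM2 (adjusted p = 0.000259). Centring on the median level of the class instead ended the call of *Rheb* with the lines together (-0.22, adjusted p = 0.0786). In that form *Mtor* was not called in SAM1 (-0.064, adjusted p = 0.109) or in SAM2 (-0.069, adjusted p = 0.088). With centring on the level of the chromosome *Mtor* was called in the other direction, higher, in SAM2 (0.21, adjusted p = 0.00642).

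**Figure D4:**
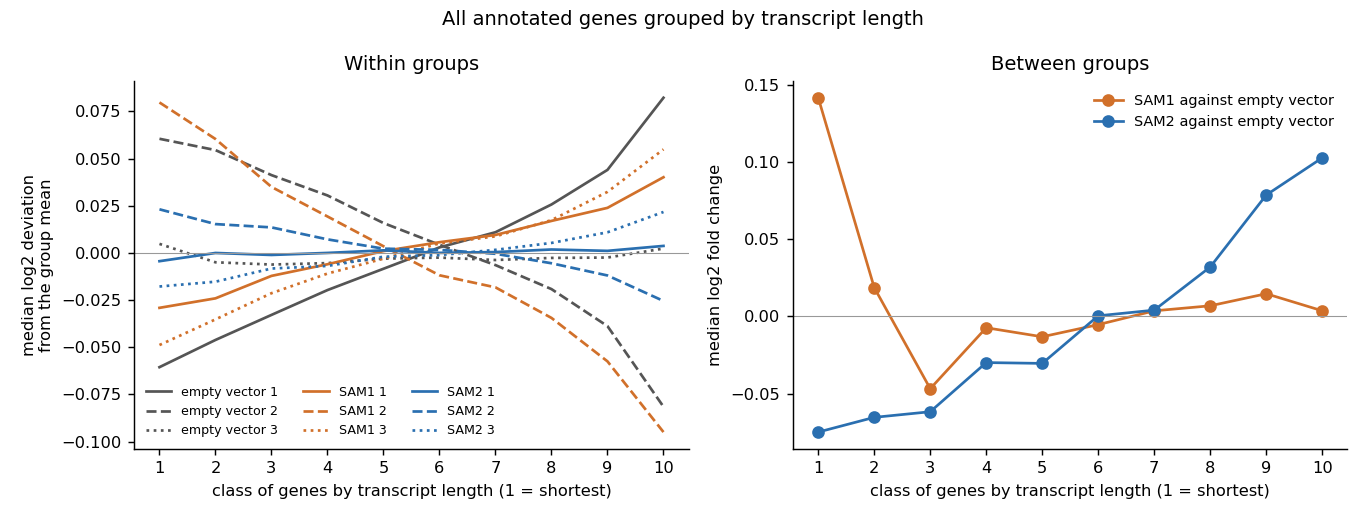
Genes grouped into 10 classes by the length of the canonical transcript (x axis, 1 for the shortest). The left panel gives each library's median log2 deviation from its group mean and the right panel the median log2 fold change of each line against empty vector. In the longest class empty vector replicate 1 stands at 0.082, empty vector replicate 2 at -0.082 and SAM1 replicate 2 at -0.095.

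All of the genes but *Rictor* and *Tsc1* share exon sequence with a neighbour on the opposite strand, and whether reads were counted by strand is not given in the sources used here. *Tsc2* shares 700 bases, or 10.2% of its canonical transcript, with *Pkd1*, which read 14085 ± 1364 normalized counts (SD, n = 3) in empty vector, 7694 ± 891 in SAM1 and 14158 ± 375 in SAM2. *Pkd1* fell in SAM1 (-0.87 (adjusted p = 2.3e-07)) and was at 0.012 (adjusted p = 0.902) in SAM2, whereas *Tsc2* rose by 0.59 and 0.50. *Tsc2* also shares 182 bases with *Nthl1*, at 414 ± 24.96 normalized counts (SD, n = 3) in empty vector. *Rps6kb1* shares 155 bases, or 2.78%, with *Rnft1*, which fell by 0.64 in SAM1 and 0.22 in SAM2 on the log2 scale (adjusted p = 1.57e-09 and 7.19e-05). Of *Mlst8*, 923 bases are shared with *Bricd5*, which was not in the table. The partners of the other 5 genes were not in it either. On the opposite strand *Akt1s1* shares 28.1% of its transcript with *Gm57218*, *Rheb* 13.3% with *Gm71450*, *Akt1* 10.4% with *Gm30150*, *Rptor* 1.27% with *Rptoros* and *Mtor* 1.09% with *Gm69484*, and on its own strand *Rptor* shares 12.5% with *Gm69672*. Reads in the shared bases could have been assigned to either gene, and their part in these values was not tested.

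Beyond the 10 genes, 109 others of the pathway were taken by name in 8 lists, and 107 were in the table. Together 26 rose and 31 fell with the lines combined (24.3% and 29%), beside 26.8% and 27.0% of all genes. By line, 36 rose and 47 fell in SAM1 (33.6% and 43.9%) and 46 rose and 36 fell in SAM2 (43% and 33.6%), beside 37.3% and 36.9% of all genes in SAM1 and 35.2% and 35.3% in SAM2. Their median log2 fold change was -0.041 in SAM1 and 0.038 in SAM2. Directions were mixed within most lists, and the genes named are those with the largest mean change among the genes called in the same direction in both lines and those nearest in pattern to one of the 10. *Mapkap1*, *Tbc1d7* and *Rps6* fall outside this choice and were named after their values were seen. The lists were not tested as groups.

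Among 8 partners and assembly factors of the TOR complexes, 4 rose and 1 fell with the lines together (50% and 12.5%, against 26.8% and 27.0% of all genes). By line, 4 rose and 2 fell in SAM1 (50% and 25%) and 6 rose and 1 fell in SAM2 (75% and 12.5%), against 37.3% and 36.9% of all genes in SAM1 and 35.2% and 35.3% in SAM2, with a median of 0.23 in SAM1 and 0.24 in SAM2. *Deptor*, an inhibitory subunit of both complexes, had the largest rise, and read 294, 299 and 318 normalized counts with empty vector, 1255, 1157 and 1200.2 with SAM1 and 1578, 1576 and 1619 with SAM2. No library of one group came near another group. The log2 fold change of *Deptor* was 1.98 (95% interval 1.88 to 2.09, adjusted p = 5.51e-13) in SAM1 and 2.39 (95% interval 2.28 to 2.49, adjusted p = 2e-13) in SAM2. *Prr5* and *Prr5l*, which encode the mTORC2 partners Protor-1 and Protor-2, rose by 0.59 and 0.80 in SAM1 and by 1.04 and 1.28 in SAM2. *Prr5l* read 322, 335 and 314 normalized counts with empty vector, 569, 558 and 561 with SAM1 and 822, 783 and 761 with SAM2. *Tti1*, part of the chaperone complex that assembles mTOR, rose by 0.34 in SAM1 and 0.31 in SAM2, and *Mapkap1*, which encodes the mTORC2 subunit mSIN1, was lower (-0.10 (adjusted p = 0.00405) in SAM1 and -0.20 (adjusted p = 2.39e-05) in SAM2). *Deptor* and *Prr5* lie, like *Rictor*, on chromosome 15. Of the partners of TSC and *Rheb*, *Rhebl1*, a close relative of *Rheb*, went from 181 ± 13.5 (SD, n = 3) to 361 ± 35.3 in SAM1 and 309.8 ± 15.8 in SAM2 (0.99 (adjusted p = 1.91e-07) and 0.77 (adjusted p = 2.71e-06)), and *Tbc1d7*, the TSC complex's further subunit, rose in SAM1 (0.18 (adjusted p = 0.00816)) and was at -0.053 (adjusted p = 0.388) in SAM2.

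Of 17 genes of the receptor, PI3K and AKT arm, 5 rose and 6 fell in SAM1 (29.4% and 35.3%) and 8 rose and 7 fell in SAM2 (47.1% and 41.2%), beside 37.3% and 36.9% of all genes in SAM1 and 35.2% and 35.3% in SAM2. *Akt2*, a relative of *Akt1* that encodes another AKT kinase, fell from 4950.1 ± 157 normalized counts (SD, n = 3) in empty vector to 3208 ± 85.3 in SAM1 and 3430.3 ± 64.2 in SAM2. Beside -0.19 in SAM1 and -0.35 in SAM2 for *Akt1*, *Akt2* changed by -0.63 in SAM1 and -0.53 in SAM2. The difference between these genes was not tested. *Igf1r*, the receptor for insulin-like growth factor 1, fell by 0.77 in SAM1 and 0.66 in SAM2 on the log2 scale, from 7097 ± 476 to 4171 ± 184 and 4484 ± 103 normalized counts. *Inpp4b*, a phosphatase that acts on a product of PI3K, rose from 20.98 ± 4.61 to 113 ± 12.4 and 111 ± 17.8, the largest change of the list at a low level.

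Of 31 amino acid sensing genes, 5 rose and 20 fell in SAM1 (16.1% and 64.5%) and 8 rose and 10 fell in SAM2 (25.8% and 32.3%), against 37.3% and 36.9% of all genes in SAM1 and 35.2% and 35.3% in SAM2, and the median was -0.18 in SAM1 and -0.00018 in SAM2. *Rragd*, one of the RAG GTPases that bring mTORC1 to the lysosome, read 3248, 3058 and 3154 normalized counts with empty vector, 576, 615 and 636 with SAM1 and 416, 425 and 421 with SAM2. Every Hnrnpk_SAM library was far below every empty vector library. On the log2 scale it changed by -2.37 (95% interval -2.47 to -2.27, adjusted p = 8.32e-14) in SAM1 and -2.90 (95% interval -3.00 to -2.80, adjusted p = 2.27e-14) in SAM2. *Rragb*, another RAG GTPase, rose and read 144, 147 and 103 normalized counts with empty vector, 358, 347 and 387 with SAM1 and 274, 297 and 304 with SAM2, a log2 fold change of 1.48 in SAM1 and 1.16 in SAM2. *Rraga* (-0.47 in SAM1 and -0.34 in SAM2) and *Rragc* (-0.16 in SAM1 and -0.38 in SAM2) fell. *Lamtor1*, which anchors the Ragulator scaffold to the lysosome, fell from 5795 ± 287 to 3634 ± 194 in SAM1 and 4047 ± 17.9 in SAM2, and *Kptn*, of the KICSTOR complex, from 566 ± 50.2 to 325 ± 27.3 and 338 ± 3.72 (SD, n = 3).

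Of 14 energy and stress inputs, 6 rose and 6 fell in SAM1 (42.9% and 42.9%) and 6 rose and 7 fell in SAM2 (42.9% and 50%), beside 37.3% and 36.9% of all genes in SAM1 and 35.2% and 35.3% in SAM2. *Prkaa2*, a catalytic subunit of the energy sensor AMPK, read 277, 249 and 231 normalized counts with empty vector, 136, 114 and 159 with SAM1 and 137, 150.2 and 148 with SAM2, with log2 fold changes of -0.90 in SAM1 and -0.79 in SAM2. *Rps6ka1* and *Rps6ka3*, which encode RSK kinases that phosphorylate TSC2 and Raptor, went in opposite directions, with 0.38 in SAM1 and 0.73 in SAM2 for *Rps6ka1* and -0.58 in SAM1 and -0.19 in SAM2 for *Rps6ka3*. *Ddit4l*, a relative of the mTORC1 inhibitor REDD1, had 2, 1 and 0 reads with empty vector, 32, 37 and 38 in SAM1 and 17, 16 and 17 in SAM2, too few in empty vector for a fold to be given. *Ddit4*, which encodes REDD1, rose with log2 fold changes of 0.32 in SAM1 and 0.42 in SAM2.

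Among 13 genes of the translation outputs of mTORC1, 5 rose and 5 fell in SAM1 (38.5% and 38.5%) and 7 rose and 4 fell in SAM2 (53.8% and 30.8%), beside 37.3% and 36.9% of all genes in SAM1 and 35.2% and 35.3% in SAM2, with medians of 0.019 and 0.12. *Eif4ebp1*, the translation repressor that mTORC1 inactivates, read 11032, 11601 and 11369 normalized counts with empty vector, 7590.4, 8226 and 7482 with SAM1 and 10517, 10785 and 10513 with SAM2, so that SAM1 lay well below and SAM2 just below empty vector. The fitted log2 fold change was -0.55 (adjusted p = 1.36e-08) in SAM1 and -0.10 (adjusted p = 0.0308) in SAM2, and the SAM2 value was -0.028 (adjusted p = 0.328) when centred by length. *Larp1*, which binds the mRNAs of ribosomal proteins, rose by 0.28 in SAM1 and 0.50 in SAM2, and *Eif4a1*, the helicase of the cap-binding complex, by 0.30 in SAM1 and 0.28 in SAM2. *Eef2k*, the kinase that slows elongation, fell with -0.38 in SAM1 and -0.43 in SAM2, from 2257 ± 44.4 to 1734 ± 63.4 and 1670.0 ± 28.4 normalized counts. *Rps6*, the ribosomal protein that S6K1 phosphorylates, was at 0.0027 (adjusted p = 0.961) in SAM1 and 0.038 (adjusted p = 0.477) in SAM2, and at -0.12 (adjusted p = 0.0159) in SAM1 when centred by length.

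Of 13 autophagy and lysosome outputs, 6 rose and 3 fell in SAM1 (46.2% and 23.1%) and 8 rose and 3 fell in SAM2 (61.5% and 23.1%), against 37.3% and 36.9% of all genes in SAM1 and 35.2% and 35.3% in SAM2. *Dap*, a substrate of mTORC1 that restrains autophagy, read 140314, 143746 and 142058 normalized counts with empty vector, 26578, 27015 and 25988 with SAM1 and 18189, 18329 and 17549 with SAM2. It was the most abundant gene of the lists in empty vector by normalized count and had log2 fold changes of -2.42 (adjusted p = 9.83e-16) in SAM1 and -2.98 (adjusted p = 1.08e-16) in SAM2, although the other genes of its chromosome, 15, had a median above 0. *Rb1cc1*, which encodes the FIP200 subunit of the ULK1 complex, fell by 1.62 and 1.07 on the log2 scale. *Tfeb* and *Mitf*, transcription factors that mTORC1 keeps out of the nucleus, rose with 0.64 in SAM1 and 0.66 in SAM2 for *Tfeb* and 0.61 in SAM1 and 0.76 in SAM2 for *Mitf*. Of 9 other substrates, 3 rose and 5 fell in SAM1 (33.3% and 55.6%) and 2 rose and 4 fell in SAM2 (22.2% and 44.4%), against 37.3% and 36.9% of all genes in SAM1 and 35.2% and 35.3% in SAM2. *Grb10*, an adaptor that mTORC1 stabilizes, read 32335, 30566 and 31672 normalized counts with empty vector, 13154, 12370.4 and 13005 with SAM1 and 15086, 15073 and 15347 with SAM2, and fell by 1.30 and 1.05 on the log2 scale. The kinase genes *Sgk1*, *Sgk3* and *Prkca*, of the family that mTORC2 acts on, fell, with -0.83 in SAM1 and -0.77 in SAM2 for *Sgk1*, -1.17 in SAM1 and -1.18 in SAM2 for *Sgk3* and -0.44 in SAM1 and -0.30 in SAM2 for *Prkca*.

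**Figure D5:**
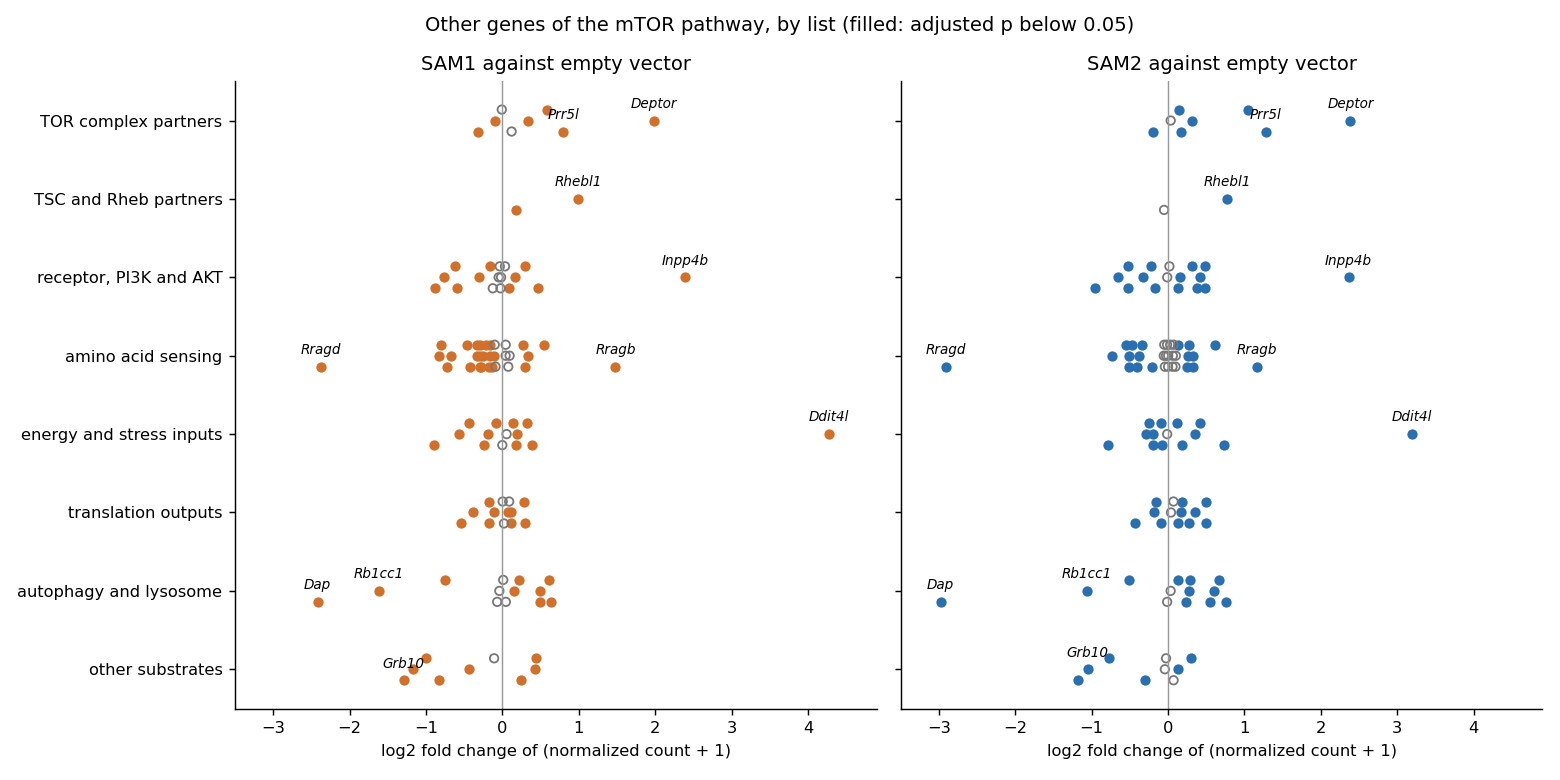
Log2 fold changes of 107 further genes of the mTOR pathway (x axis, on log2(normalized count + 1)) in SAM1 and SAM2 against empty vector, by list. Filled points passed an adjusted p of 0.05 and open points did not. *Deptor*, *Inpp4b* and *Rragb* lie furthest to the right and *Rragd*, *Dap* and *Rb1cc1* to the left, apart from *Ddit4l*, whose empty vector libraries held 0 to 2 reads.

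The patterns of 6 of the called genes over the 6 Hnrnpk_SAM libraries, each taken as the log2 distance from the empty vector mean, were set beside those of the 107 other pathway genes. Likeness was measured as the root mean square difference on the log2 scale. *Akt1s1* was closest to *Lamtor3*, a Ragulator subunit, at 0.038 and *Akt1* to *Rragc*, a RAG GTPase, at 0.043. *Tsc1* was closest to *Tti1* at 0.056 and *Rheb* to *Eif4ebp1* at 0.092. *Tsc2*, with *Phlpp1* at 0.11, and *Rictor*, with *Eif4b* at 0.12, had no gene as near. The second places went to *Eef2k*, *Prkab1*, *Ddit4*, *Rraga*, *Atg14* and *Larp1* in the same order. All points share the empty vector mean and the 6 libraries, so that the distances are descriptions.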

How the data were processed

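Per the labels and the study's methods, polyA+ RNA was made into libraries with a directional kit and sequenced on a NextSeq500 in pairs of 43 bases. The authors checked reads with FastQC 0.11.0, aligned them with TopHat2 and Bowtie to GRCm39, allowing 3 mismatches and 20 multihits, counted them with HTSeq on GENCODE vM29, and divided the counts by DESeq2 size factors. The deposited values are therefore a signal, normalized counts, of genes above 10 in at least 30% of libraries. The sources used here do not give the strand setting of the counting. In all 9 libraries the values were whole multiples of 1 read within 1e-06, and reads were recovered for the count tests.

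The test was limma 3.58.1 with its trend option, run in R 4.3.3 on log2(value + 1) of all 15184 genes, and p-values adjusted by Benjamini-Hochberg below 0.05 were called. As in the study, the 6 Hnrnpk_SAM libraries formed 1 group against empty vector, and a second fit with 3 groups gave each line. It was tested on simulated data, in which all groups had the same spread. The fits likewise share a single spread per gene, but the groups differed in spread. The mean chi-square per gene between libraries of a group is near 1 for read sampling alone. It was 1.53 to 2.28 in SAM2 and 10.7 to 12.9 in empty vector. In SAM1 it was 1.45 for replicates 1 and 3, and 7.83 and 9.30 for the pairs with replicate 2. A fold change on this scale understates that of genes with low values. Ratios of 2 genes were tested by exact permutation over libraries. The members and the gene lists were chosen with earlier results of these data known. Of other pathway genes, at most 4 per list are named, those with the largest mean change among the genes called in the same direction in both lines, together with the 2 nearest in pattern to each called member and 3 named after their values were seen. Coordinates and transcript lengths are from GENCODE vM39 on GRCm39, in which 14791 of the listed genes were found once. The alternatives were another pseudocount (10), only genes above 10 in every library, quantile and TMM scaling, limma without the trend, the mean of the lines in the fit with 3 groups, the replicate block, each library left out, edgeR 4.0.16 and DESeq2 1.42.0 on the recovered reads, and centring by transcript length or chromosome, in 2 forms each, chosen after seeing the data. Some genes that this rule names are not reported here. No protein sequences were used here.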

Additional observations from a re-analysis of the deposited data

Results flagged for a closer look

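*Mtor* stood out for 1 library. SAM1 replicate 2, at 2321 normalized counts, lay far from the other 5 Hnrnpk_SAM libraries for the size of the whole range, by Dixon's test at 95%, which chance passes in about 1 group in 20. The same library was low for long transcripts in general.

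The change against empty vector differed between the lines, by the test of SAM2 against SAM1 with limma, for *Rictor* (0.44), *Rps6kb1* (0.42), *Rheb* (0.30) and *Akt1* (-0.16), as SAM2 minus SAM1 on the log2 scale. *Hnrnpk* differed by 0.15. Of the other named genes, those higher in SAM2 were *Deptor* (0.40), *Prr5l* (0.49), *Prr5* (0.46), *Akt2* (0.10), *Lamtor1* (0.16), *Rps6ka1* (0.35), *Rps6ka3* (0.38), *Larp1* (0.22), *Eif4ebp1* (0.45), *Rb1cc1* (0.55), *Grb10* (0.24), *Prkca* (0.14), *Rraga* (0.13), *Ddit4* (0.10), *Eif4b* (0.43), *Pkd1* (0.89) and *Rnft1* (0.42), and those lower were *Rhebl1* (-0.22), *Rragd* (-0.53), *Rragb* (-0.32), *Ddit4l* (-1.08), *Dap* (-0.56), *Mapkap1* (-0.094), *Tbc1d7* (-0.23), *Rragc* (-0.22), *Prkab1* (-0.20) and *Nthl1* (-0.22).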

How the results depend on the processing

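The fits were repeated under 22 alternatives. Counting each of the 10 genes once per comparison and alternative, 761 values kept direction and side of the threshold, 31 lost the call, 19 gained one and 39 turned in sign, the last given below. The number of the 10 called was 7 with the lines together and 3 with centring on the level of the chromosome, 8 and 5 in SAM1, and 4 and 7 between the lines with centring by length. The correlation of deviations between libraries of the same number ran from 0.0024 to 0.12 over 9 pairs (median 0.034). Between libraries of different number it ran from -0.12 to 0.046 over 18 pairs (median -0.026). Not every pair of the same number reached 0.1, so that the main fits left the libraries unpaired, which does not exclude a weak pairing. With the replicate block all the same, 7343 genes and 6 of the 10 were called with the lines together, 11631 and 9 in SAM1, 11095 and 7 in SAM2, and 9812 and 6 between the lines, and *Rictor* lost its call with the lines together (adjusted p = 0.0659). With centring on the level of the chromosome, the sign turned for *Mtor* (0.14 with the lines together, 0.074 in SAM1, 0.21 in SAM2), *Mlst8* (-0.10 with the lines together, -0.032 in SAM1), *Hnrnpk* (0.10 with the lines together, 0.0075 in SAM1), *Atg14* (-0.056 with the lines together, -0.092 in SAM1, -0.020 in SAM2), *Rictor* (-0.049 in SAM1), *Eef2k* (0.0028 in SAM1), *Rragc* (0.029 in SAM1), *Eif4b* (-0.15 in SAM1), *Prkab1* (0.058 in SAM1), *Rps6kb1* (-0.054 in SAM2), *Tbc1d7* (0.091 in SAM2), *Pkd1* (-0.13 in SAM2), *Nthl1* (-0.040 in SAM2) and *Mapkap1* (0.039 between the lines). With centring by chromosome, the sign turned for *Mtor* (0.061 with the lines together, 0.13 in SAM2), *Mlst8* (-0.13 with the lines together, -0.089 in SAM1), *Hnrnpk* (0.084 with the lines together), *Rictor* (-0.014 in SAM1), *Eif4b* (-0.11 in SAM1), *Prkab1* (0.10 in SAM1), *Atg14* (-0.033 in SAM1), *Rps6kb1* (-0.031 in SAM2), *Tbc1d7* (0.12 in SAM2), *Pkd1* (-0.14 in SAM2), *Nthl1* (-0.053 in SAM2) and *Mapkap1* (0.031 between the lines). Under quantile normalization, the sign turned for *Mlst8* (-0.028 with the lines together), *Hnrnpk* (0.16 with the lines together, 0.094 in SAM1), *Rps6* (-0.011 with the lines together, -0.0041 in SAM1, -0.018 in SAM2) and *Tsc1* (-0.044 between the lines). With centring by length, the sign turned for *Mlst8* (-0.0028 with the lines together), *Rps6* (-0.0037 with the lines together, -0.12 in SAM1), *Rps6kb1* (-0.052 in SAM2), *Hnrnpk* (-0.0033 in SAM2), *Tbc1d7* (0.022 in SAM2), *Pkd1* (-0.11 in SAM2), *Mtor* (-0.034 between the lines), *Tsc1* (-0.11 between the lines) and *Akt1s1* (0.074 between the lines). With centring on the level of the length class, the sign turned for *Rps6* (-0.076 with the lines together, -0.31 in SAM1), *Prkab1* (0.071 in SAM1), *Mlst8* (0.020 in SAM2), *Rps6kb1* (-0.058 in SAM2), *Hnrnpk* (-0.10 in SAM2), *Eif4ebp1* (0.062 in SAM2), *Tbc1d7* (0.12 in SAM2), *Pkd1* (-0.014 in SAM2), *Mtor* (-0.0055 between the lines), *Tsc1* (-0.077 between the lines), *Akt1s1* (0.13 between the lines) and *Nthl1* (0.21 between the lines). Under TMM scaling, the sign turned for *Tsc1* (-0.0018 between the lines). With edgeR on the recovered reads, the sign turned for *Tsc1* (-0.0045 between the lines). With DESeq2 on the recovered reads, the sign turned for *Tsc1* (-0.0012 between the lines). With 1 library left out, the values that turned in sign ranged from -0.043 to 0.040 for *Mlst8* with the lines together, -0.016 to 0.067 for *Mlst8* in SAM1, -0.019 to 0.039 for *Rps6* in SAM1, -0.11 to 0.025 for *Mtor* in SAM2, -0.070 to 0.013 for *Mlst8* in SAM2, -0.046 to 0.088 for *Pkd1* in SAM2, -0.068 to 0.043 for *Tsc1* between the lines and -0.035 to 0.018 for *Akt1s1* between the lines, and the number of the 10 called ranged from 5 to 7 with the lines together, 7 to 8 in SAM1, 6 to 7 in SAM2 and 4 to 5 between the lines. The 4 ratios were repeated with the other pseudocount, the replicate block, each library left out and the 4 forms of centring. *Mlst8* to *Mtor* turned to -0.24 (adjusted p = 0.0714) with centring on the level of the chromosome and -0.19 (adjusted p = 0.107) with centring by chromosome, and passed the test at 0.14 (adjusted p = 0.0357) with centring by length, and in these repeats the other 3 ratios kept their sign. With centring by chromosome *Rptor* to *Rictor* was -0.40 and *Rheb* to *Tsc2* -0.62, smaller in size than in the main test. *Tsc1* to *Tsc2* was then -0.30, larger in size. The cause of the changes in sign was not tested. With 3 libraries a group, small changes such as those of *Mtor* and *Mlst8* are bounded only by their intervals, and mRNA levels say nothing of protein or phosphorylation.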
